A study of Arabidopsis thaliana with 12 samples.

Results

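The transposable_element row of the deposited count files covered 6277 of the 217183 exon intervals that the 9 gene biotypes of the files list. The row was taken whole, by its name, so no measured value chose its members. Its intervals carry chromosome, start, end and strand, whereas its reads were deposited as 1 summed count per library. The data therefore give the position and sequence of every interval, and the expression of the row as a whole.

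RNA-seq was performed on Arabidopsis thaliana Col-0 seedlings to ask how GPL, a partner of the HOS15 and HDA6 repressor complex, affects the transcriptome under abscisic acid (ABA). The groups were gpl-1 with ABA, gpl-1, WT with ABA and WT, with 3 libraries each. All plants were 2 weeks old, were grown on MS medium with 1% sucrose in 16 h light and 8 h dark at 23 °C, and the treated seedlings were kept with ABA for 2 h. The mutant groups came from 1 mutant line of GPL, gpl-1, in the same Col-0 background, so a difference between genotypes cannot be told apart from other differences between these plants. The ABA concentration is not given in the labels.

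Transposable elements are DNA segments that move or copy themselves within a genome. Retrotransposons copy through RNA, whereas DNA transposons are cut out and inserted elsewhere by a transposase. In Arabidopsis seedlings most of them are held silent by cytosine methylation in CG, CHG and CHH contexts (H stands for A, C or T) and by methylation of histone H3 at lysine 9, and histone deacetylases such as HDA6 take part in this silencing at a set of elements and at ribosomal RNA genes. The share of reads from these elements in gpl-1 against WT is thus the comparison that the design offers for this row.

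The 8 stretches printed here show what the row holds, the extremes of length, copy number, uniqueness, overlap with genes and CG content among its exons. Each is printed from the 5′ end of its exon, except that AT5G28673 is printed from the 5′ end of its window. The strand is the annotated one of TAIR10.1, read from RefSeq. Bases are in lower case with every CG dinucleotide in capitals, because CG is the main target of DNA methylation. Lowest and highest CG content refer to the ratio of observed to expected CG dinucleotides, among exons of at least 300 bases.

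AT5G28263, longest interval, chr5:10241337-10241486, plus strand: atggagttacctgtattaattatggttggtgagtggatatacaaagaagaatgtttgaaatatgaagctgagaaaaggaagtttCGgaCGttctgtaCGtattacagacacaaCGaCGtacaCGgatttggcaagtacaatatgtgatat
AT1G40077, longest interval found whole at more than 1 place, chr1:14906447-14906596, minus strand: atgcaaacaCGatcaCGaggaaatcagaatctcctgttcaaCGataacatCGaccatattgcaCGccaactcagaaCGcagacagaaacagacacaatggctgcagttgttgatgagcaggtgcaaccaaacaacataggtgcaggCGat
AT5G28673, window with most copies, the first 40 bases of chr5:10708334-10708433 on the minus strand: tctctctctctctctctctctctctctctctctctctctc
AT3G60965, longest interval with no repeated window, chr3:22551244-22551393, minus strand: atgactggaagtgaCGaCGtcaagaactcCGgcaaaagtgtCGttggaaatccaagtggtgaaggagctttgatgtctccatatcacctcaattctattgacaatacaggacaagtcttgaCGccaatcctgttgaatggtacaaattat
AT3G31915, longest interval inside a protein_coding exon, chr3:12910118-12910267, plus strand: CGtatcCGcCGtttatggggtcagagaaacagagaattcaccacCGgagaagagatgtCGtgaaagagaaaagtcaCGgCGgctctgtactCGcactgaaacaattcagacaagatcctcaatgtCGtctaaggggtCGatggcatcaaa
AT3G42080, lowest CG content, chr3:14260594-14260743, plus strand: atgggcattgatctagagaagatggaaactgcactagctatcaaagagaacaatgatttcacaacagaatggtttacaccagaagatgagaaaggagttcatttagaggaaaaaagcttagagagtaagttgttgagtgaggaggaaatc
AT3G42556, highest CG content, chr3:14676967-14677116, plus strand: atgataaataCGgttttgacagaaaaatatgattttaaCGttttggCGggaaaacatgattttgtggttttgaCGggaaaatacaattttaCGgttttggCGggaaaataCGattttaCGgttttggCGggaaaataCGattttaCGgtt
AT3G28010, most copies of a 12-base motif described with the CG content, chr3:10414964-10415113, minus strand: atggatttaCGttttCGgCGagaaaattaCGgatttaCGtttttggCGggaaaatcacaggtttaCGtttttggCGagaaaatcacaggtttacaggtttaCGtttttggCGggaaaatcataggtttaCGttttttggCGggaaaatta

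Transposable element exons took few reads for their length. The row held between 38504 and 61630 fragments per library, out of totals between 24735276 and 34329165, which is 0.137% to 0.180% of all counts. Its exons made up 17.5% of the annotated exon length of the 9 biotypes. In counts per 1000000 counts of the library (CPM) and per kb of annotated length, the row lay between 0.151 and 0.199, with a median of 0.172 over the 12 libraries.

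On this per-length scale the row ranked 8 of 9 in every library, with snRNA alone below it. The snRNA row rests on 10 to 27 fragments per library. The pseudogene row, whose genes are broken copies of other genes, lay at a median of 1.39, and stood at 5.89 to 11.4 times the level of the transposable element row. The protein_coding row lay at a median of 24.1, or 121 to 160 times the level of the transposable element row. The ranges over the 12 libraries of the transposable element, pseudogene and protein_coding rows did not overlap. Sequence found at more than 1 place made up 11.8% of the 100-base windows in transposable element exons. The share was 7.62% in pseudogene and 1.33% in protein_coding exons. How fragments with several equal places were counted is not given in the sources used here, and its part in these levels was not tested.

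**Figure D1:**
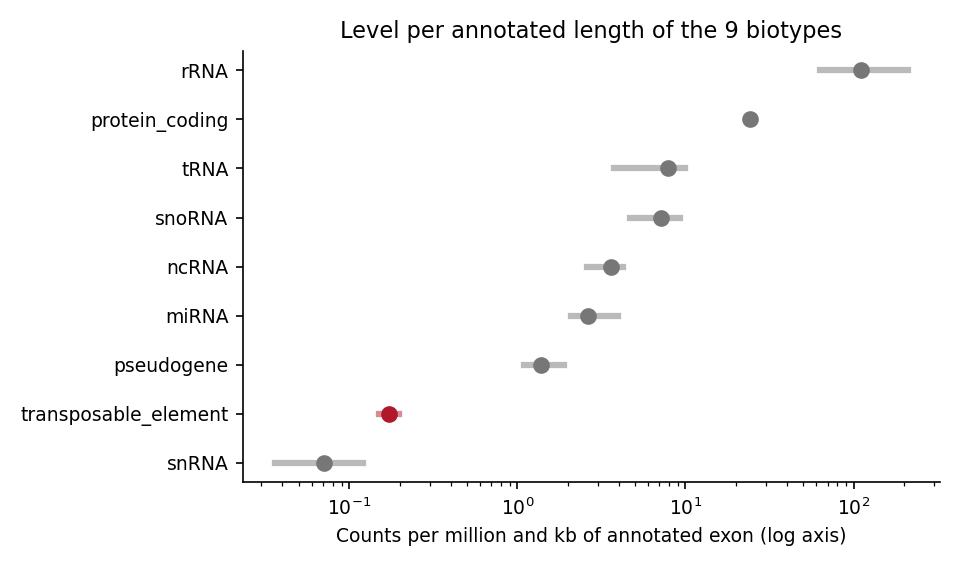
CPM per kb of annotated exon (log axis) for the 9 biotypes, one row each, with the transposable element row in red. Points mark the median and bars the range over the 12 libraries; the transposable element median of 0.172 lies below the pseudogene median of 1.39 and the protein_coding median of 24.1.

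The intervals belonged to 3903 loci of TAIR10.1, so the row averaged 9.87 to 15.8 fragments per locus and 6.13 to 9.82 per interval in a library. A locus of the median exon length of 1950 bases, read at the median protein_coding level per kb, would take 47.1 CPM. The whole row took as many counts as 29.1 to 38.2 such loci. The files do not tell whether the fragments came from many loci or from a few, since only the sum was deposited.

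The reads of the row did not separate the genotypes. In gpl-1 with ABA the row had 1503, 1499 and 1559 CPM in replicates 1, 2 and 3. In gpl-1 it had 1793, 1800 and 1487. In WT with ABA it had 1369, 1368 and 1557, and in WT it had 1689, 1691 and 1604. Replicates 1 and 2 of gpl-1 were the highest libraries of the study and replicates 1 and 2 of WT with ABA the lowest, whereas the third replicates of the groups lay between 1487 and 1604.

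Replicates 1 and 2 differed by 0.121% to 0.391% in every group, within the counting error of a library, whose 95% Wilson interval was at most 0.998% of the value to each side. They were therefore summed and counted as 1 sample, which leaves n = 2 per group. The summed pair stood 20.8% above replicate 3 in gpl-1 and 5.36% above it in WT, but 3.76% below it in gpl-1 with ABA and 12.1% below it in WT with ABA. The labels do not say whether any of the libraries came from separate plants, so the spread may be technical. The pooled SD between the samples of a group was 0.12 on the log2 scale, or 1.09-fold.

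**Figure D2:**
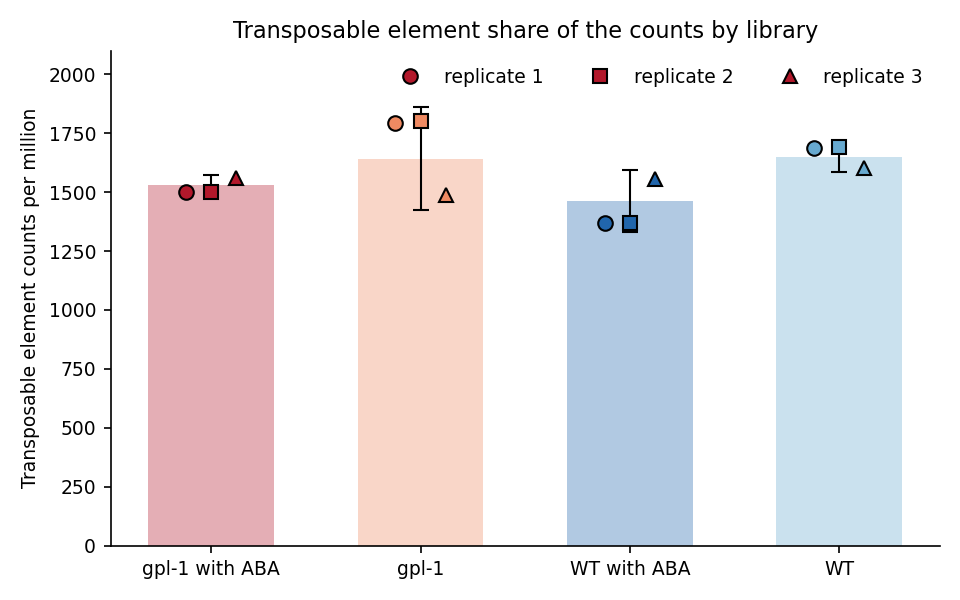
Transposable element CPM (vertical axis) in the 12 libraries, by group. Bars and whiskers are the mean and SD of the 2 samples of a group (replicates 1 and 2 summed, replicate 3), and points are the libraries; replicate 3 lies between 1487 and 1604 in all groups, while replicates 1 and 2 lie at 1368 to 1800.

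The genotype comparison gave a log2 difference of 0.03 for gpl-1 against WT over both treatments (exact permutation test within treatment, two-sided p = 0.722, smallest possible 0.0556). Without ABA the group means were 1642 ± 219 CPM in gpl-1 and 1647 ± 60.8 in WT (SD, n = 2 each), which is 0.181 and 0.182 per kb. The log2 difference was -0.01 ± 0.14 (SE, n = 2 per group, exact permutation p = 1), and it was 0.13 without gpl-1 replicate 3. With ABA the means were 1530 ± 41.4 in gpl-1 and 1463 ± 133 in WT (SD, n = 2 each), or 0.169 and 0.162 per kb. The log2 difference was 0.07 ± 0.10 (SE, n = 2 per group, exact permutation p = 0.667). It was 0.16 without replicate 3 of WT with ABA and -0.12 with DESeq2 size factors. The groups overlapped in both comparisons. In each, 11.1% of the 9 biotypes had groups that did not overlap, snoRNA without ABA and snRNA with ABA. The transposable element row ranked 8 of 9 by the size of its log2 difference in both.

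The ABA comparison gave a log2 difference of -0.13 over both genotypes (exact permutation test within genotype, two-sided p = 0.222, smallest possible 0.0556). The difference was -0.28 in replicates 1 and 2 and 0.01 in replicate 3. In WT the 3 libraries with ABA were all below the 3 without it, and the log2 difference was -0.17 ± 0.10 (SE, n = 2 per group). Its exact permutation p of 0.333 is the smallest that 2 samples against 2 allow. Groups that did not overlap were found in 55.6% of the 9 biotypes for this comparison, and the row ranked 7 of 9 by size. In gpl-1 the groups with and without ABA overlapped, as they did in all but 22.2% of the biotypes, and the log2 difference was -0.10 ± 0.14 (SE, n = 2 per group, exact permutation p = 1). The ABA response of gpl-1 minus that of WT was 0.08 (exact permutation p = 0.611). It was -0.058 without gpl-1 replicate 3 and 0.17 without replicate 3 of WT with ABA. All 7 comparisons had a Benjamini-Hochberg adjusted exact permutation p of 1. With 2 samples per group only the comparisons over all groups could come near 0.05, and a p that misses the threshold does not show that the groups are alike.

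**Figure D3:**
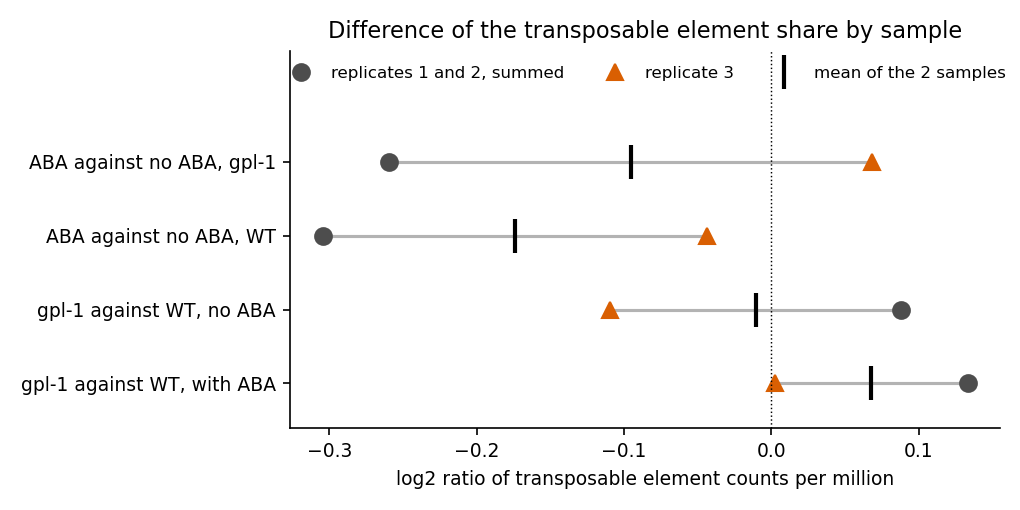
Log2 ratio of transposable element CPM (horizontal axis) for the 4 comparisons between groups. Circles are replicates 1 and 2 summed, triangles replicate 3 and bars their mean; in the first and the third comparison from the top, circle and triangle lie on opposite sides of 0.

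What the row was set against changed its pattern. Of the counts outside protein_coding, it took 19.5%, 19.5% and 27.7% in gpl-1 with ABA, 23.2%, 23.3% and 24.9% in gpl-1, 23.1%, 23.1% and 27.3% in WT with ABA and 19.8%, 19.9% and 23.4% in WT. Replicate 3 was the highest library of every group on this scale. The log2 difference of ABA in WT was 0.22 on it, opposite in sign to that of the CPM. In CPM, the rRNA row, a part of this total, differed by -1.27 in replicates 1 and 2 and -0.50 in replicate 3. The transposable element row itself differed by -0.30 and -0.04. The value of 0.22 is thus a share of a total that also changed, and not a rise of the row in CPM. For each fragment of the pseudogene row there were 0.904, 0.900 and 1.38 transposable element fragments in gpl-1 with ABA, against 1.75, 1.73 and 1.09 in gpl-1. The same ratio was 1.12, 1.13 and 1.17 in WT with ABA, against 1.75, 1.74 and 1.03 in WT. In replicates 1 and 2 the ratio was thus lower with ABA in both genotypes, and in replicate 3 it was higher with ABA in both. Both rows of the ratio changed. With ABA the log2 CPM of the pseudogene row differed by 0.69 in replicates 1 and 2 and -0.27 in replicate 3 in gpl-1. In WT it differed by 0.33 and -0.23. The transposable element row differed by -0.26 and 0.07 in gpl-1 and by -0.30 and -0.04 in WT.

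The intervals themselves were long and few compared with those of genes. They measured between 4 and 15195 bases, with a median of 625, a mean of 1444 and quartiles of 159 and 2337. The 159647 distinct protein_coding intervals had a median of 160 and a mean of 284 bases. Intervals of at least 1000 bases numbered 2565, which is 40.9% of the row and 87.5% of its length. Of the loci, 3339 (85.5%) had a single exon, and 26 was the highest number of exons in a locus.

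The row listed 9064239 bases in all. The files list 17 intervals more than once, and 6232 remained after overlapping ones were merged, with 9051105 bases. An identical exon was found in TAIR10.1 for 6269 intervals, and the other 8 overlapped a TAIR10.1 locus on the same strand over at least 50% of their length. TAIR10.1 annotates 3901 of the loci as pseudogenes and 2, MUG3 and MUG7, as protein_coding genes.

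Transposable element exons were concentrated in one region of each chromosome, and protein_coding exons were sparse there. In Arabidopsis, transposable elements are known to be dense around the centromeres, whose positions were not used here. Chromosomes 1 to 5 held 1078, 1241, 1547, 1123 and 1288 intervals. They covered 5.41%, 9.72%, 8.74%, 8.52% and 6.89% of these chromosomes and 7.60% of the nuclear genome, where protein_coding exons covered 34.2%. The plus strand held 3305 intervals (52.7%) and the minus strand 2972.

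In bins of 1 Mb, 13 of 116 full bins (11.2%) held 50% of the transposable element length. The bin with the highest cover, chr4:3000001-4000000, had 47.1% of its bases in transposable element exons and 1.40% in protein_coding exons. The bins with the highest cover on chromosomes 1, 2, 3 and 5 had 33.8%, 40.5%, 42.1% and 39.4%, with protein_coding cover of 2.98%, 3.43%, 2.54% and 3.03%. The median bin had 1.74% transposable element cover and 39.6% protein_coding cover, and 22 bins had more of the first than of the second. Across the 116 bins the covers were inversely related (Spearman's rho of -0.85, Pearson's r of -0.96), a description of bins that are neighbours on 5 chromosomes and in which a base of one kind is rarely also of the other. Within 3 Mb of the median transposable element position of each chromosome lay 84.7% of the transposable element length and 9.47% of the protein_coding length.

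**Figure D4:**
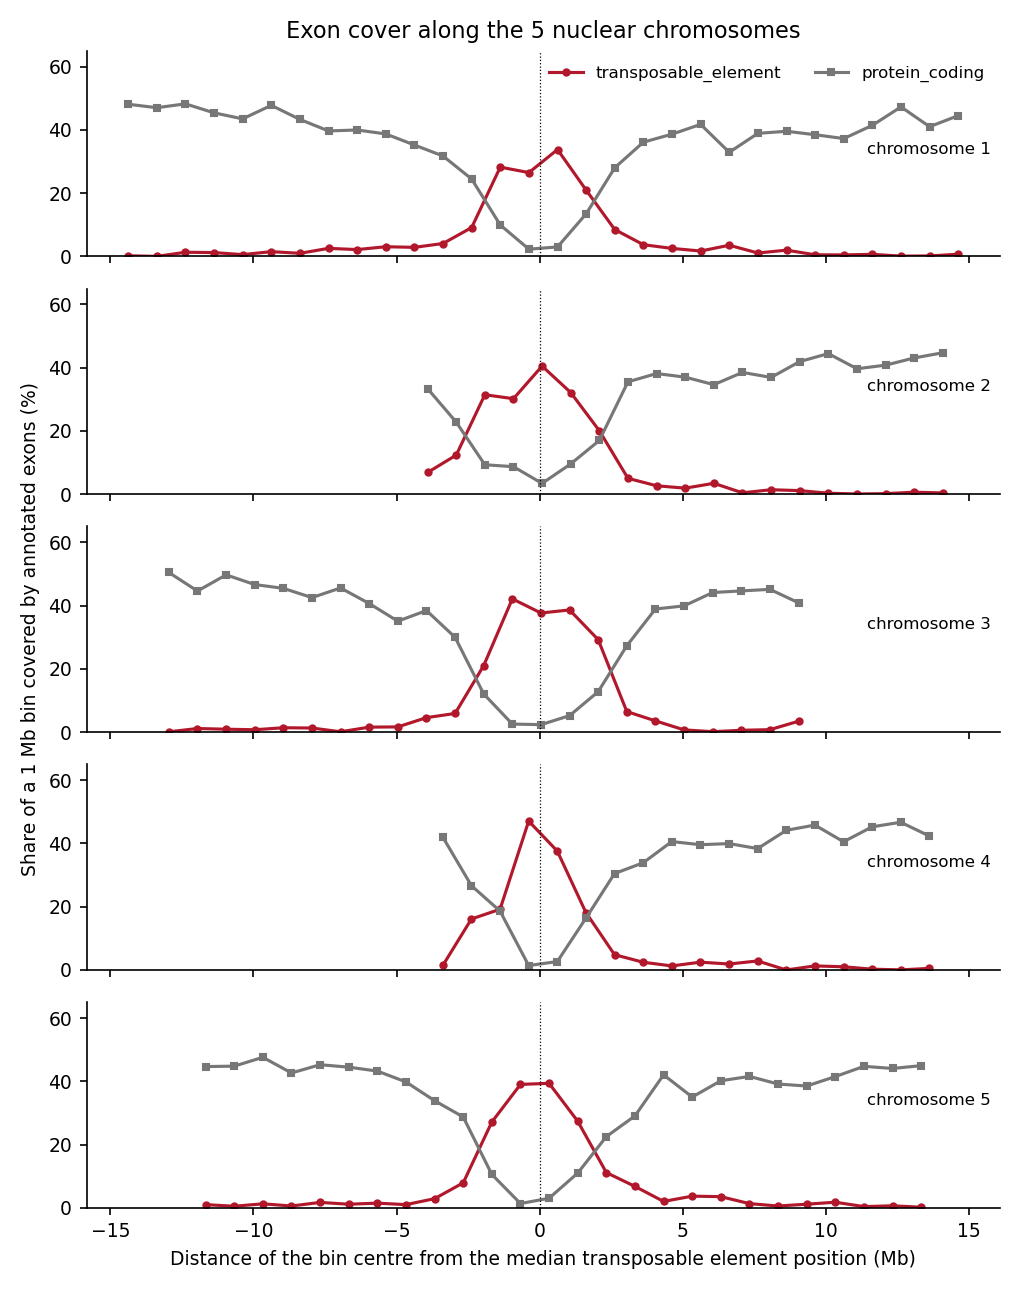
Share of each 1 Mb bin covered by transposable element exons (red) and protein_coding exons (grey), against the distance in Mb of the bin centre from the median transposable element position, for the 5 nuclear chromosomes. The red line reaches 33.8% to 47.1% near 0 and the grey line is lowest there.

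Few intervals touched a gene. A protein_coding exon overlapped 23 intervals (0.366%), over 5994 bases (0.0662% of the merged length), and exons of any other biotype overlapped 33 intervals (0.526%) over 11446 bases (0.126%). The median distance to the nearest protein_coding exon was 6423 bases and the largest 214734. Within 1000 bases of a protein_coding exon, or over one, lay 783 intervals (12.5%), within 200 bases 143 (2.28%) and within 5000 bases 2698 (43.0%). AT3G31915 (chr3:12910118-12910276, 159 bases), printed above, lay whole inside a protein_coding exon, as did 1 other interval of the 2 so placed. Fragments in such overlaps meet exons of 2 rows. The overlaps took 0.126% of the length, which does not bound their share of the counts. Protein_coding exons had 121 to 160 times the level of the row per kb, and the share of the counts from overlaps was not tested.

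Copies of the same sequence were more frequent in the row than in genes. Of all 100-base windows of transposable element exons, 11.8% were found at more than 1 place in the genome, against 7.62% in pseudogene exons, 1.33% in protein_coding exons and 3.74% in the genome as a whole. With windows of 50 bases the share was 22.1% in transposable element exons and 2.04% in protein_coding exons, and with windows of 150 bases it was 8.31% in transposable element exons and 1.11% in protein_coding exons. Of 5408 intervals of at least 100 bases, 3150 (58.2%) had no repeated window, 2258 (41.8%) had at least 1 and 273 (5.05%) had repeated windows only. A fragment that lies wholly inside a repeated window has no single place of origin by its sequence, whereas one that extends beyond it may have.

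The stretches printed above show these cases. AT1G40077 (chr1:14899838-14906596, 6759 bases), which was picked after its values were seen, was found whole and without a mismatch at 2 places, itself included. AT3G60965 (chr3:22541491-22551393, 9903 bases) had no repeated window and lay 90 bases from the nearest protein_coding exon. In AT5G28673 (chr5:10706347-10708619) the window with most copies is a run of TC dinucleotides. It was found at 476 start positions on 5 chromosomes, of which 10 lay wholly in transposable element exons. A run longer than the window gives several overlapping starts, so 476 is not a number of separate places. Of the windows of AT5G28673, 1.15% were repeated, so this count belongs to a simple repeat inside an otherwise mostly unique exon.

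Long terminal repeats, the identical ends of many retrotransposons, were looked for as 50-base windows that recur in the same interval at least 1000 bases apart. A direct repeat of this kind was found in 28 of 2471 intervals of at least 1100 bases (1.13%) and in 22 of 718 of at least 4000 bases (3.06%). Inverted repeats, which end many DNA transposons, were found in 2 by the same search, which cannot find repeats shorter than 50 bases. AT5G28263 (chr5:10241337-10256531), the longest interval, had direct repeats up to 10571 bases apart and repeated windows over 77.6% of its length. The annotated exons thus seldom held exact repeats of this length and distance. Whether they held both ends of an element cannot be told from this search, since shorter or diverged repeats are missed.

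Stretches without a stop codon, called open here, ran over most of the length of some intervals. They were not compared with other biotypes or with a chance expectation. Of 3926 intervals of at least 300 bases, 990 (25.2%) had a stretch without a stop codon, on the annotated strand, over at least 90% of their length. The median longest stretch was 43.5% of the interval. Stretches of at least 1000 codons were found in 116 intervals, and the longest had 1674 codons.

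CG dinucleotides were scarcer in transposable element exons than in protein_coding exons. Methylated cytosines are known to mutate to T by deamination, and the part of this in the ratios given here was not tested. The ratio of CG dinucleotides to the number expected from the C and G content was 0.640 in transposable element exons, against 0.706 in protein_coding exons, 0.730 in pseudogene exons and 0.721 in the nuclear genome. The GC content was 41.9% in transposable element exons and 42.3% in protein_coding exons. Per kb there were 28.1 CG, 33.3 CHG and 296 CHH sites in transposable element exons, against 31.6, 35.4 and 287 in protein_coding exons.

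Single exons spread widely around these values. The median ratio was 0.634 over 3921 transposable element exons of at least 300 bases, with quartiles of 0.482 and 0.815, against 0.704 over 39150 protein_coding exons, with quartiles of 0.536 and 0.920. A ratio under 0.5 was found in 28.0% of the transposable element exons and in 19.9% of the protein_coding exons. AT3G42080 (chr3:14260594-14260990), printed above, had no CG in its 397 bases at a GC content of 38.0%.

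**Figure D5:**
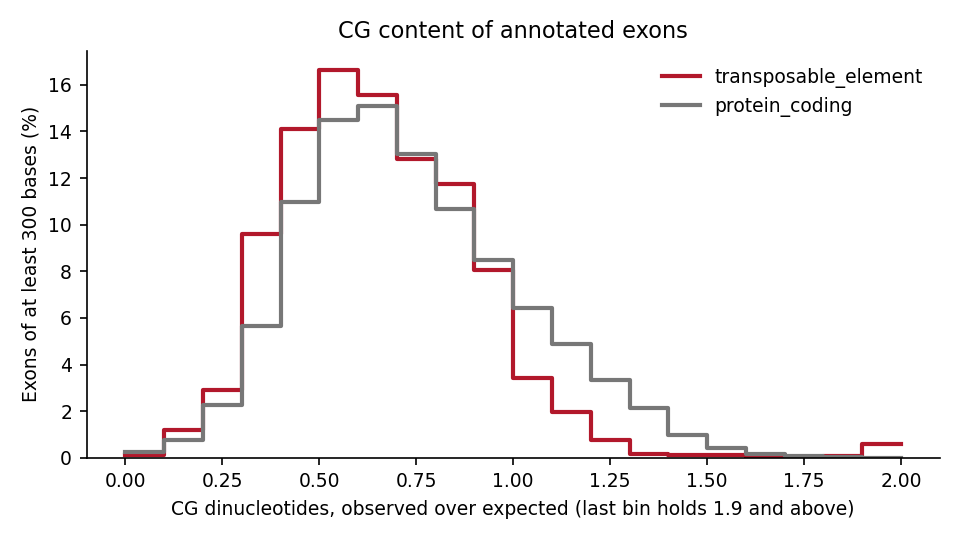
Share of exons of at least 300 bases (vertical axis, %) by the ratio of observed to expected CG dinucleotides (horizontal axis), for transposable element (red) and protein_coding exons (grey). The last bin holds ratios of 1.9 and above, with 0.587% of the transposable element exons.

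At the other end, 23 transposable element exons (0.587%) had a ratio of at least 1.9, against 3 protein_coding exons (0.00766%). They measured 329 to 961 bases, lay on 5 chromosomes and were AT-rich, with 29.7% to 39.5% GC. AT3G42556 (chr3:14676967-14677308) had the highest ratio, 3.38. The 12-base word present in most of the 23 exons was TTTGGCGGGAAA, and AT3G42556 carries it 3 times in the bases printed above.

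The letters of this motif match the binding element of the E2F cell cycle transcription factors. It was chosen from these exons, so its presence in 21 of the 23 is a description. A search on both strands found 142 copies in them on the annotated strand and 0 on the other. AT3G28010 (chr3:10414328-10415113, 786 bases) held 15 copies, the highest number in an exon, 3 of them in the printed bases. The motif was found in 33 of all transposable element exons of at least 300 bases (0.842%) and in 17 protein_coding exons (0.0434%). At least 3 copies were found in 23 transposable element exons, whereas no protein_coding exon had more than 1. Of 1559 copies in the nuclear genome, 182 (11.7%) lay in transposable element exons and 24 (1.54%) in protein_coding exons. The 23 exons from which the motif was chosen include 21 of the 33 exons with it and hold 142 of the 182 copies. The contrasts with protein_coding exons therefore follow largely from that choice and do not show enrichment in the row. A match describes these letters and says nothing of binding. Of the 23 exons, 19 had no 100-base window in common with another place in the genome.

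A name or a family note was given by TAIR10.1 for 61 of the 3903 loci, so the families of the other loci are not described here. The largest named family was Sadhu, with 16 loci. Sadhu elements are short retrotransposons that code for no protein of their own. They had a median exon length of 901.5 bases and a median longest open stretch of 92 codons. Their ratio of observed to expected CG was between 0.844 and 1.22, with a median of 1.01, against a median of 0.645 over all 3903 loci. They lay a median of 905 bases from the nearest protein_coding exon, against 6056 bases for all loci. A repeated window was found in 3 of the 16, against 1788 of all 3903 loci.

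The 8 MUSTANG (MUG) loci derive from Mutator-like transposases that the host plant has taken over as genes. They lay a median of 9.95 Mb from the median transposable element position of their chromosome, against 1.24 Mb for all loci. MUG8 was the nearest, at 0.933 Mb, and MUG3 the farthest, at 12.8 Mb. None had a repeated window, whereas 1788 of all 3903 loci had at least 1. Their longest open stretches had between 607 and 820 codons, with a median of 699, against 206 over all loci, and the median distance to a protein_coding exon was 190 bases. The 2 of them that TAIR10.1 annotates as protein_coding genes, MUG3 and MUG7, are counted in the transposable element row by the files. An exon of MUG3 and an exon of MUG6 overlapped a protein_coding exon over part of their length, as did 2 Sadhu exons, so fragments there meet exons of both rows.

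The remaining named families had 1 to 4 loci each, and 24 loci carried other names or notes. RE2, a copia-type retrotransposon, had 4437 bases and an open stretch of 1344 codons. CYTOSLEEPER, related to hAT transposases, had 2668 bases and an open stretch of 800 codons. CACTA elements and non-LTR retrotransposons had 4 loci each, and Athila and other Mutator-like elements 1 each. The row also held EXT11, named for the extensins of the cell wall. The reads of these loci cannot be separated from those of the rest of the row.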

How the data were processed

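RNA-seq counts of 12 libraries (4 groups of 3) were used. Per the labels and file headers, the authors trimmed reads with Trim Galore, aligned them with Bowtie2 against the TAIR10 build, and ran featureCounts 2.0.1. The deposited values are raw counts, summed by the authors over the exons of each gene biotype. Fragments were counted without strand although the library kit is directional, and marked duplicates were included. Bowtie2 is not aware of splicing. Its treatment of fragments with several equal places is not given in the sources used here, and it bears on the repeated windows. The count columns of the gpl-1 files carry the name UP in their header, which the sources used here do not explain, and files were assigned by their sample records.

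The counts were divided by the library total (24735276 to 34329165 fragments) and, for levels between biotypes, by the annotated length in the files. Counting intervals are 95% Wilson intervals and cover counting error only. Replicates 1 and 2 were summed in every group because they lay within or near sampling noise. Groups were compared by two-sided exact permutation tests of log2 CPM (counts per 1000000), within genotype or treatment where all groups entered, with Benjamini-Hochberg adjustment over 7 comparisons. Alternatives used edgeR 4.0.16 and DESeq2 1.42.0 in R 4.3.3 over the 9 biotypes, with the 12 libraries counted separately. The other steps ran in Python 3.11.15 (scipy 1.17.1 for tests, numpy 2.4.6 for windows, pandas 2.3.3, matplotlib 3.10.9), and the tests and window counts were checked on simulated data.

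Intervals were matched to the RefSeq annotation of TAIR10.1, whose nuclear sequence has the coordinates of TAIR10. Windows were counted on both strands of the whole genome. The exons named are the longest, the one with the window of most copies, the longest without a repeated window, the longest inside a protein_coding exon and those of lowest and highest CG ratio among exons of at least 300 bases. AT1G40077, AT3G28010 and the motif were added after their values were seen. Families are those named in the annotation. The row, the lists and the tests were chosen with earlier results of these data known.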

Additional observations from a re-analysis of the deposited data

How the results depend on the processing

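No alternative gave an adjusted p under 0.05, and the lowest was 0.0746, for ABA over both genotypes in edgeR's quasi-likelihood test (unadjusted p 0.0229). That p was adjusted over the 9 biotypes, whereas the permutation tests were adjusted over the 7 comparisons and gave 0.175 at the lowest, for the same comparison with 3 libraries per group counted separately. The edgeR and DESeq2 fits also counted the 3 libraries of a group separately, so replicates 1 and 2 entered as 2 samples. Their p-values are therefore not comparable with those at n = 2 per group. The ABA difference over both genotypes was -0.18 (log2) when 3 libraries per group were counted separately. The difference of gpl-1 against WT without ABA, -0.01, turned positive under 6 settings. It was 0.022 with 3 libraries per group counted separately and with the replicate block, 0.027 in edgeR with library totals and without biotypes under 50 counts, 0.026 with TMM factors, and 0.16 against the total of biotypes other than protein_coding. Against that total the log2 difference was 0.22 for ABA in WT, 0.084 for ABA over both genotypes, -0.11 for gpl-1 compared with WT under ABA and -0.27 for the ABA response of gpl-1 minus that of WT. With DESeq2 size factors, gpl-1 against WT was -0.12 with ABA and -0.091 over both treatments, and the ABA response of gpl-1 minus that of WT was -0.064. The cause was not tested. Deviations of libraries from their group means over the 9 biotypes were compared between libraries of the same number. The median correlations were 0.26, 0.51 and 0.37 for replicates 1, 2 and 3. The lowest were -0.085, 0.073 and 0.025, and the highest 0.72, 0.71 and 0.71. The numbers were not taken as pairs in the main tests, although replicate 3 had the lowest total of every group. The replicate block changed no other direction and no call.

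With libraries left out, the log2 difference of ABA lay between -0.26 and -0.09 in gpl-1, between -0.30 and -0.17 in WT and between -0.28 and -0.13 over both genotypes. That of gpl-1 against WT lay between -0.048 and 0.13 without ABA, between 0.04 and 0.16 with ABA and between 0.01 and 0.11 over both treatments. The ABA response of gpl-1 minus that of WT lay between -0.058 and 0.17. Without replicate 3 of every group, gpl-1 against WT without ABA was 0.088. Without gpl-1 replicate 3 it was 0.13, and the ABA response of gpl-1 minus that of WT was -0.058. Scaling over 9 rows, of which protein_coding holds over 99% of the counts, is a weak basis for TMM and DESeq2: replicates 1 and 2 of WT with ABA got TMM factors of 1.03 and 0.875. The counting interval of a library was at most 0.998% to each side, against a pooled SD of 1.09-fold between samples, which may be technical.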
